A study of Mus musculus with 4 samples.

Results

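The genes described here are the transcription factor ATF4, its main target genes and the cytosolic aminoacyl-tRNA synthetases, measured in mouse effector Th1 and Th17 cells sorted by the surface level of CD30. The list of 39 genes held 6 regulators, 4 stress effectors, 10 enzymes of amino acid and one-carbon metabolism, 7 amino acid transporters and 12 tRNA synthetases. Of these, 38 were named on probe sets of the array, among 18193 named genes in all, and Pycr1, an enzyme of proline synthesis, was not analysed here. Each gene was represented by its brightest probe set, judged by the mean of the 4 arrays, and log2 ratios were computed with 100 in place of any lower signal.

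The study compared 4 populations, with 1 Affymetrix Mouse Genome 430 2.0 array each: CD30high Th17, CD30low Th17, CD30high Th1 and CD30low Th1 cells. The Th17 cultures held IL-6, IL-1β and IL-23 at 10 ng/ml each with antibodies to IL-4 and IFN-γ, and the Th1 cultures held IL-2 at 30 U/ml and IL-12 at 100 U/ml with antibody to IL-4 alone, both for 6 days. By the study's methods, naive splenic CD4 T cells that carried an ovalbumin-specific transgenic T cell receptor (DO11.10 or OTII) were stimulated with ovalbumin peptide and irradiated splenocytes depleted of T cells, and the study asked which genes differ between CD30high and CD30low effector cells. The labels give CD44low CD62Lhi starting cells for both CD30high samples and CD44low CD62Llow starting cells for both CD30low samples, while the methods name CD62Lhigh cells only, so the CD30 gate and the starting cells cannot be told apart.

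ATF4 is the main effector of the integrated stress response. Kinases that sense amino acid shortage, misfolded protein, haem shortage or double-stranded RNA phosphorylate eIF2α, which lowers translation in general but lets the ATF4 mRNA be translated. Together with C/EBP partners, ATF4 then binds C/EBP-ATF response elements and raises the transcription of genes for amino acid synthesis, amino acid uptake and tRNA charging, and in activated T cells this program supplies the amino acids and one-carbon units used for growth. ATF4 is controlled largely at the level of translation and the array reads mRNA only.

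The core of that element, TGATGNAA, (the letters TGATG, then any base, then AA) was searched on both strands of the RefSeq start-site windows (GRCm38.p6), each from 250 bases before to 50 bases after a start site. The motif was found in the windows of 13 of 33 members (39.4%), against 1219 of 27025 genes (4.51%) and 1304 of 32851 windows (3.97%) in the table. Its most common form among the members, TGATGCAA, was found in 9 members (27.3%), against 279 genes (1.03%). By role, TGATGNAA was found in 5 of 8 synthetases, 3 of 10 enzymes, 2 of 5 transporters and 2 of 4 stress effectors. Of the 6 regulators, 1 held it, namely Trib3. Slc7a5, Slc1a5, Cars, Lars, Nars and Wars were not in the table. A match of letters is a description of the sequence and not evidence of binding. The windows around the motif are shown for the pair of members that passed the 2-fold rule used below (Vldlr and Pck2), for 2 further members with large values in CD30high Th17 cells or low values there (Asns and Trib3), and for 2 synthetases with signals on every array below (Gars and Iars), with the motif in capitals and 10 bases on each side, 5′ to 3′ on the strand that reads TGATGNAA.
Vldlr, chr19:27216810-27216837, minus strand: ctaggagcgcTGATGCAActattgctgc
Pck2, chr14:55540153-55540180, minus strand: tgtaagatacTGATGTAActttgaaggc
Asns, chr6:7693215-7693242, minus strand: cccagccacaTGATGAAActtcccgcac
Trib3, chr2:152344029-152344056, plus strand: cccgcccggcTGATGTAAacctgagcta
Gars, chr6:55037961-55037988, minus strand: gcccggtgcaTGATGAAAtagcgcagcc
Iars, chr13:49682127-49682154, minus strand: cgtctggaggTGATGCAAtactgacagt

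The members were, with few exceptions, well expressed in all 4 populations. A signal of at least 300 was reached on every array by 32 of 38 members and on some array by 34, and 35 had a mean signal of at least 200. Ddit4 was the brightest member, with signals between 8293 and 14063. Slc7a11, the light chain of the cystine and glutamate exchanger, was below 100 on all 4 arrays, and Chac1, which degrades glutathione, and Slc1a4, a transporter of small neutral amino acids, were below 100 on some. Signals are in arbitrary units and were not compared between genes beyond this description. With 1 array per group, ratios of 2 arrays carry neither a replicate error nor a p-value. The spread between 2 probe sets of the same gene was the only measure of precision: its SD per probe set on the log2 scale, over 3500 genes, was 0.22 for CD30 in Th17 cells, 0.25 for CD30 in Th1 cells, 0.33 for lineage among CD30high cells and 0.31 among CD30low cells.

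**Figure D1:**
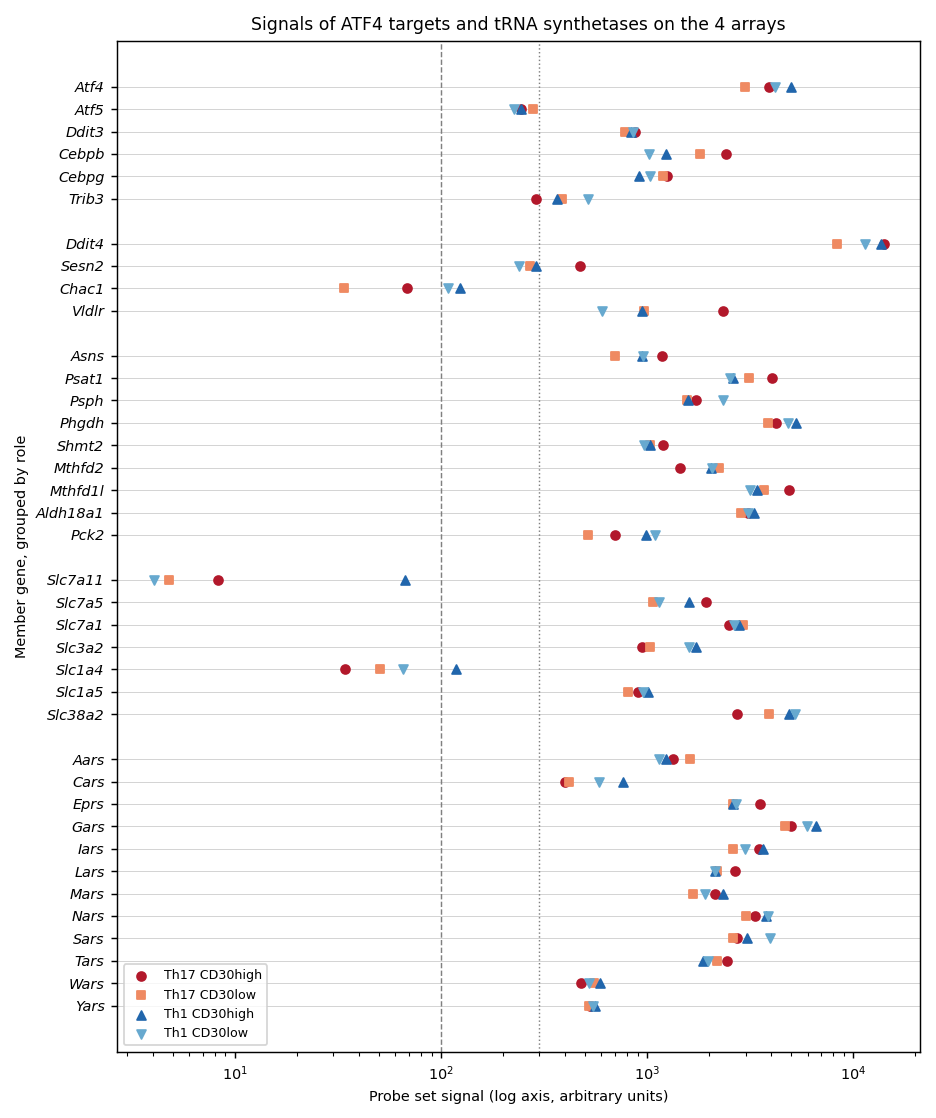
Signal of each of the 38 named members on each array (horizontal log axis, arbitrary units), grouped by role. Red circles are CD30high Th17, orange squares CD30low Th17, dark blue triangles CD30high Th1 and light blue triangles CD30low Th1 cells. The dashed line marks 100, below which signals were set to 100 for ratios, and the dotted line marks 300; 32 members lie at or above 300 on every array.

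In Th17 cells the members were on the whole slightly higher in CD30high than in CD30low cells, and Vldlr, Slc7a5, Sesn2, Ddit4 and Asns had the highest ratios. Of 35 members with a mean signal of at least 200, 26 (74.3%) had a log2 ratio above 0, where 50.7% of all 8438 genes that bright did, and the median log2 ratio of the members was 0.15 against 0.01 for all genes. This shift was not particular to the members. In the same comparison the median was 0.19 for the eIF2α kinases, phosphatases and eIF2B subunits and 0.17 for the mitochondrial synthetases. For genes of the IRE1 and ATF6 branches, described below, it was 0.21. The other amino acid transporters (-0.37) and interferon γ-induced genes (-0.18) went the other way. Few members passed a size limit. Under the 2-fold rule, which asks for a signal of at least 300 on the brighter array, 1 of 34 members was higher and 0 were lower, where 3.94% of 7786 genes were higher, 3.66% lower and 7.60% either. Under a 1.5-fold rule, 5 members were higher (14.7%; Vldlr, Slc7a5, Sesn2, Ddit4 and Asns) and 1 was lower (2.94%; Mthfd2), where 9.52% of genes were higher, 9.12% lower and 18.6% either. The share of members past 1.5-fold in either direction (17.6%) was near that of all genes.

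In Th1 cells the corresponding differences were smaller. A log2 ratio above 0 was found for 23 of 35 members (65.7%), against 46.8% of 8438 genes, and the median was 0.11 against -0.02 for all genes. None of 33 members passed the 2-fold rule, where 0.794% of 7813 genes were higher, 0.486% lower and 1.28% either. Only Vldlr passed the 1.5-fold rule, upward, where 4.04% of genes were higher, 3.57% lower and 7.62% either. The pair of CD30 comparisons share no array. CD30high was above CD30low in both lineages for 17 of 35 members (48.6%), against 28.3% of 8438 genes, and below it in both for 3 members (8.57%), against 30.5% of genes. The 17 were Atf4, Cebpb, Ddit4, Sesn2, Vldlr, Psat1, Phgdh, Shmt2, Mthfd1l, Aldh18a1, Slc7a5, Slc1a5, Gars, Iars, Lars, Mars and Yars, and the 3 were Trib3, Mthfd2 and Slc38a2. Of the 17, 9 had a second probe set with a mean signal of at least 200, which kept both signs for 6 and not for Vldlr, Phgdh and Aldh18a1, and of the 3 Mthfd2 did not keep them (0.04 in Th1 cells). Over the 21 members with such a second probe set, the sign of the CD30 ratio was kept for 18 in Th17 and 13 in Th1 cells. Many of these ratios were smaller than the spread between probe sets, and those of Phgdh, Aldh18a1, Gars and Yars were at most 0.13 in both lineages.

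**Figure D2:**
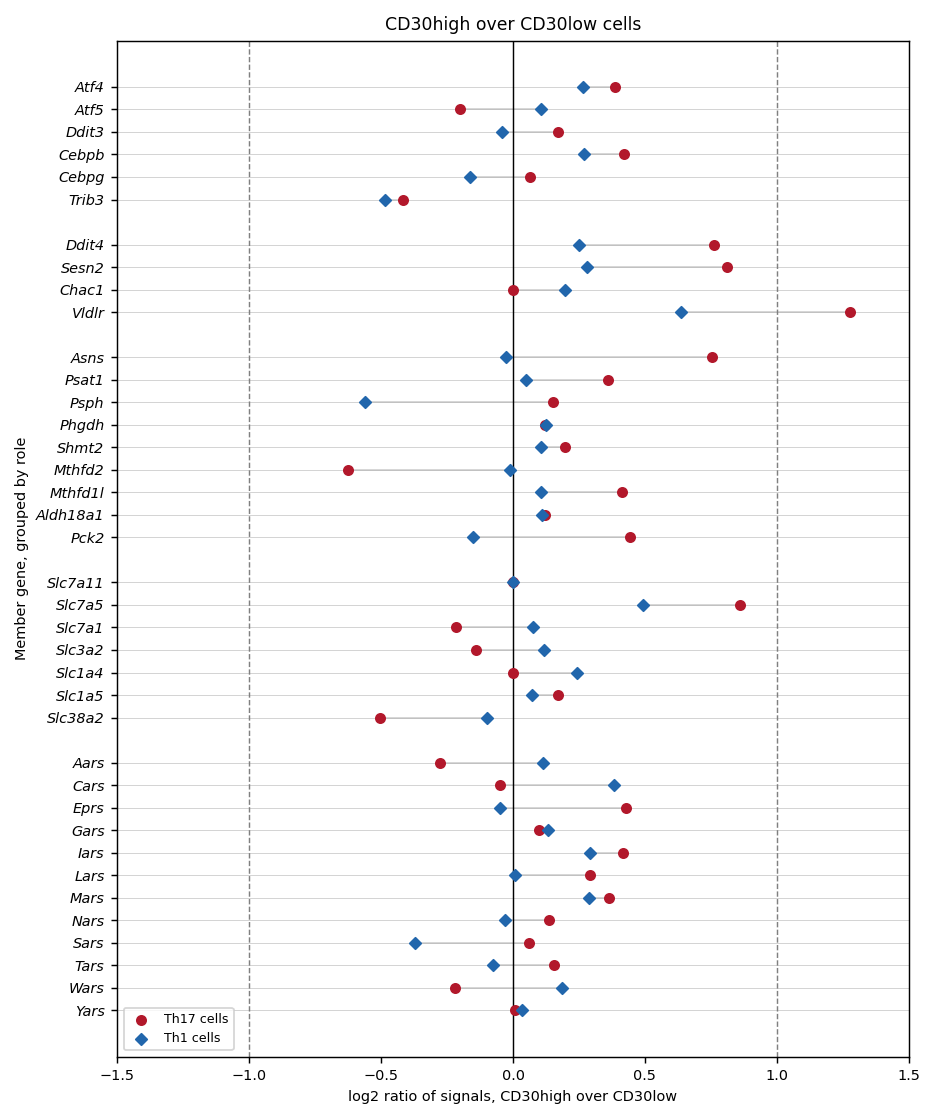
Log2 ratio of CD30high over CD30low for each member (horizontal axis), in Th17 cells (red circles) and Th1 cells (blue diamonds), with signals below 100 set to 100. Dashed lines mark 2-fold; Vldlr in Th17 cells, at 1.28, is the only point beyond them.

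Among the regulators, Atf4 itself was higher in CD30high cells of both lineages and higher in Th1 than in Th17 cells. Atf4 had signals of 3902 in CD30high and 2983 in CD30low Th17 cells, and of 5004 in CD30high and 4161 in CD30low Th1 cells. The log2 ratio for CD30 was 0.39 in Th17 and 0.27 in Th1 cells, and that of Th17 over Th1 was -0.36 among CD30high and -0.48 among CD30low cells. Its second probe set had signals of 2173 and 1694 in CD30high and CD30low Th17 cells and of 3062 and 2103 in CD30high and CD30low Th1 cells. All 4 ratios kept their sign there, but CD30high Th17 cells were above CD30low Th1 cells, so the lineages no longer separated. None of these differences reached 1.5-fold on either probe set.

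Cebpb encodes a C/EBP factor that can pair with ATF4 and is also known as a factor that IL-6 induces. Its signals were 2416 and 1806 in CD30high and CD30low Th17 cells and 1235 and 1025 in CD30high and CD30low Th1 cells, so that both Th17 arrays lay above both Th1 arrays. The log2 ratio of Th17 over Th1 was 0.97 among CD30high and 0.82 among CD30low cells, past 1.5-fold but short of 2-fold. A second probe set was dimmer and gave 0.52 and 0.27 for the same comparisons. Cebpg, a related partner, had signals of 1242 and 1188 in CD30high and CD30low Th17 cells and of 918 and 1028 in CD30high and CD30low Th1 cells.

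Trib3, a pseudokinase that binds ATF4 and restrains it, had CD30 ratios opposite in sign to those of Atf4. Its signals were 289 and 386 in CD30high and CD30low Th17 cells and 367 and 514 in CD30high and CD30low Th1 cells, giving log2 ratios for CD30 of -0.42 and -0.49. A second probe set also placed CD30high below CD30low in both lineages, with signals of 173 and 313 in CD30high and CD30low Th17 cells and of 359 and 427 in CD30high and CD30low Th1 cells. Atf5 (signals 227 to 280.3) is a stress-induced factor related to ATF4, and Ddit3 (779 to 877) encodes the C/EBP-family factor CHOP. On their brightest probe sets they had CD30 log2 ratios between -0.20 and 0.17. A second Ddit3 probe set, with a mean signal of 244, gave 0.41 in Th17 and 0.54 in Th1 cells.

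On the brightest probe sets, the stress effectors had the highest median CD30 log2 ratio of any role, at 0.81 in Th17 and 0.28 in Th1 cells. These medians are over the 3 with a mean signal of at least 200. In Th1 cells the sign depended on the probe set for Vldlr and Sesn2, as given below. Vldlr, a receptor for lipoproteins whose transcription is raised by ATF4 under endoplasmic reticulum stress, had signals of 2329 in CD30high and 962 in CD30low Th17 cells, and of 939.9 in CD30high and 605 in CD30low Th1 cells. CD30high Th17 cells stood apart, and the remaining arrays lay within 1.59-fold of each other. The ratio for CD30 was 2.42-fold in Th17 cells (log2 1.28) and 1.55-fold in Th1 cells (log2 0.63).

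Vldlr was read by 6 probe sets, and the brightest is one that the array maker marks as able to bind other transcripts. The brightest probe sets of Trib3, Phgdh, Shmt2, Aldh18a1, Wars, Aars and Iars are also so marked. The second Vldlr probe set is not. It had signals of 724 and 364 in CD30high and CD30low Th17 cells and of 206 and 235 in CD30high and CD30low Th1 cells. Its CD30 ratio in Th17 cells was thus 1.99-fold, just under the rule, and in Th1 cells it had the opposite sign (log2 -0.19). Of the others, 3 probe sets with means between 143 and 176 had Th17 CD30 log2 ratios between 1.27 and 1.46. In Th17 cells all 6 probe sets were brighter in CD30high cells, and in Th1 cells the sign of the ratio differed between probe sets.

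Ddit4 and Sesn2 both encode inhibitors of mTORC1, the growth-promoting kinase complex. Ddit4 had signals of 14063 and 8293 in CD30high and CD30low Th17 cells and of 13578 and 11426 in CD30high and CD30low Th1 cells, and CD30low Th17 cells were the low array of the 4. Sesn2 had signals of 474 and 270.1 in CD30high and CD30low Th17 cells and of 289.7 and 239 in CD30high and CD30low Th1 cells, and CD30high Th17 cells were the high array. The CD30 log2 ratios in Th17 cells were 0.76 for Ddit4 and 0.81 for Sesn2, and in Th1 cells 0.25 and 0.28. For Sesn2 a second, dimmer probe set gave 0.92 in Th17 cells and -0.76 in Th1 cells.

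**Figure D3:**
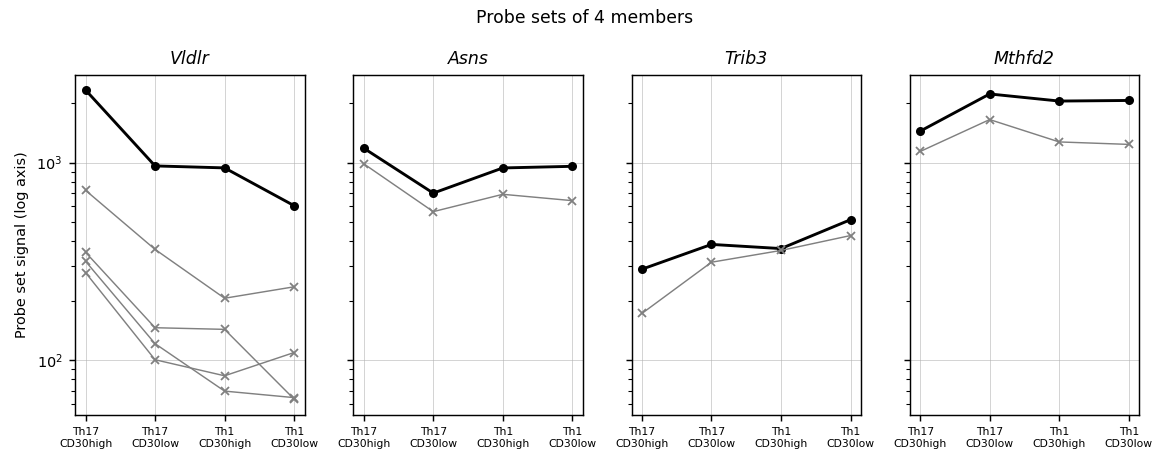
Signals (vertical log axis, arbitrary units) of each probe set with a mean signal of at least 100 for Vldlr, Asns, Trib3 and Mthfd2, with the 4 arrays along the horizontal axis. Black lines with circles are the brightest probe set of the gene and grey lines with crosses the others. For Vldlr and Asns the probe sets shown are brighter in CD30high than in CD30low Th17 cells, and for Trib3 and Mthfd2 they are dimmer there.

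Among the enzymes, 8 of 9 had higher signals in CD30high than in CD30low Th17 cells, with a median log2 ratio of 0.20, and 5 of 9 did in Th1 cells, with a median of 0.05. Asns, the asparagine synthetase, had signals of 1182 in CD30high and 701 in CD30low Th17 cells, and of 939 in CD30high and 957 in CD30low Th1 cells. The Th17 arrays were thus the highest and the lowest of the 4, with a log2 ratio for CD30 of 0.76 in Th17 and -0.03 in Th1 cells. Its second probe set gave signals of 986 and 565 in CD30high and CD30low Th17 cells and of 691 and 642 in CD30high and CD30low Th1 cells, with log2 ratios of 0.80 and 0.11.

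The enzymes of serine synthesis did not share a pattern. Phgdh, the first enzyme of the pathway, had signals of 4215 and 3871 in CD30high and CD30low Th17 cells and of 5252 and 4817 in CD30high and CD30low Th1 cells. Its CD30 log2 ratio in Th1 cells was 0.12, and 0.48 when its 4 probe sets were averaged. That average includes 1.16 from the dimmest, with a mean signal of 118, while the second gave 0.18 and the third 0.46. Psat1, the second enzyme, was highest in CD30high Th17 cells, with 4022, against 3131 in CD30low Th17 cells, and had 2599 and 2511 in CD30high and CD30low Th1 cells. Psph, the last enzyme, was highest in CD30low Th1 cells, with 2335, and lay between 1557 and 1731 on the other arrays. So both Th17 arrays were below both Th1 arrays for Phgdh and above them for Psat1.

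In the mitochondrial one-carbon pathway, Mthfd2 and Mthfd1l had CD30 ratios of opposite sign in Th17 cells. Mthfd2, which oxidizes the one-carbon unit, had signals of 1441 in CD30high and 2223 in CD30low Th17 cells, and of 2047 and 2061 in CD30high and CD30low Th1 cells, so CD30high Th17 cells were the low array. Its log2 ratio for CD30 in Th17 cells was -0.63, and -0.54 on a second probe set. Mthfd1l, which releases the unit as formate, had signals of 4883 and 3667 in CD30high and CD30low Th17 cells and of 3397 and 3154 in CD30high and CD30low Th1 cells. Shmt2, which feeds the pathway from serine, had CD30 ratios of 0.20 in Th17 and 0.11 in Th1 cells.

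Aldh18a1 and Pck2 complete the enzymes. Aldh18a1, the first enzyme of proline synthesis from glutamate, had signals of 3084 and 2837 in CD30high and CD30low Th17 cells and of 3312 and 3067 in CD30high and CD30low Th1 cells. Pck2, the mitochondrial phosphoenolpyruvate carboxykinase, had signals of 699 in CD30high and 514 in CD30low Th17 cells, and of 983 in CD30high and 1091 in CD30low Th1 cells. Both Th17 arrays were below both Th1 arrays, and the difference between the CD30low populations, 2.12-fold (log2 -1.08), passed the 2-fold rule. Among CD30high cells the log2 ratio of Th17 over Th1 was -0.49. The other probe set of Pck2 had a mean signal of 79.1 and could not serve as a second reading.

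On the brightest probe sets, the transporters were the only role with a median below 0 for CD30 in Th17 cells (-0.14). Of the 5 with a mean signal of at least 200, 2 were above 0, and for Slc7a1 the sign depended on the probe set. Slc7a5, the catalytic chain of the large neutral amino acid transporter that brings leucine into activated T cells, had signals of 1933 in CD30high and 1064 in CD30low Th17 cells, and of 1600.3 in CD30high and 1137 in CD30low Th1 cells. Both CD30high arrays were above both CD30low arrays, with log2 ratios of 0.86 in Th17 and 0.49 in Th1 cells. Slc3a2, the heavy chain with which Slc7a5 pairs, had signals of 941 and 1038 in CD30high and CD30low Th17 cells and of 1729.8 and 1596 in CD30high and CD30low Th1 cells. The subunits of this transporter thus differed in pattern: Slc7a5 followed the CD30 gate, and Slc3a2 the lineage.

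Slc38a2, a sodium-coupled carrier of neutral amino acids, had signals of 2738 and 3883 in CD30high and CD30low Th17 cells and of 4875 and 5223 in CD30high and CD30low Th1 cells. CD30high Th17 cells were again the low array, and the log2 ratio for CD30 was -0.50 in Th17 and -0.10 in Th1 cells. Slc7a1, the cationic amino acid transporter, had signals of 2507 and 2914 in CD30high and CD30low Th17 cells and of 2779 and 2638 in CD30high and CD30low Th1 cells. Its CD30 log2 ratio in Th17 cells was -0.22 there and 0.10 on a second probe set with a mean signal of 1456. The glutamine transporter Slc1a5 lay between 805 and 1008 on all 4 arrays.

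The 12 tRNA synthetases, which load amino acids onto their tRNAs, varied little with CD30. In Th17 cells 9 of 12 and in Th1 cells 8 of 12 were above 0, with median log2 ratios of 0.12 and 0.07, and no synthetase passed 1.5-fold in either lineage. The highest ratios in Th17 cells were those of Eprs (0.43), Iars (0.42) and Mars (0.36), which charge tRNAs with glutamate and proline, isoleucine and methionine. For Eprs the next 2 probe sets, with means of 2188.0 and 2168, gave 0.16 and 0.12. Iars had signals of 3472 in CD30high and 2600.1 in CD30low Th17 cells, and of 3642 in CD30high and 2974 in CD30low Th1 cells, so both CD30high arrays were above both CD30low arrays. A second Iars probe set gave CD30 log2 ratios of 0.41 in Th17 and 0.28 in Th1 cells.

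Signals on every array are also given for the synthetases for glycine (Gars) and asparagine (Nars). Gars had signals of 5005 and 4679 in CD30high and CD30low Th17 cells and of 6554 and 5975 in CD30high and CD30low Th1 cells. Nars had signals of 3324 and 3024 in CD30high and CD30low Th17 cells and of 3790.4 and 3876 in CD30high and CD30low Th1 cells. For both genes the lineage separated the arrays and the CD30 gate did not. Aars, for alanine, had a CD30 log2 ratio in Th17 cells of -0.28 on its brightest probe set and 0.22 on the second, so its direction there depended on the probe set.

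Between the lineages, the members were close to all genes, with a slightly smaller share higher in Th17 cells. Among CD30high cells, 16 of 35 members (45.7%) had a log2 ratio of Th17 over Th1 above 0, against 51.9% of 8438 genes. Their median was -0.07, against 0.02 for all genes. Among CD30low cells 14 of 35 (40.0%) were above 0, against 49.6% of genes, with medians of -0.11 for the members and -0.003 for all genes. Under the 2-fold rule, 1 of 34 members was higher in Th17 cells among CD30high cells, namely Vldlr at 2.48-fold, where 4.98% of 7979 genes were higher, 6.86% lower and 11.8% either. Pck2 was the 1 of 33 members past the rule among CD30low cells, and was lower in Th17 cells, where 3.53% of 7857 genes were higher, 5.83% lower and 9.35% either.

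At 1.5-fold the shares of members in each direction were below those of all genes in both gates. Among CD30high cells, Cebpb, Sesn2, Vldlr and Psat1 (11.8% of members) were higher in Th17 cells, where 13.6% of genes were, and Slc3a2, Slc38a2 and Cars (8.82%) were lower, where 14.9% of genes were (either direction, 20.6% of members and 28.4% of genes). Among CD30low cells, Cebpb and Vldlr (6.06%) were higher, where 11.7% of genes were, and Pck2, Slc3a2 and Sars (9.09%) were lower, where 13.3% were (either direction, 15.2% of members and 25.0% of genes). On the brightest probe sets, Cebpb and Vldlr were thus higher in Th17 cells and Slc3a2 lower at 1.5-fold in both gates. The second Cebpb probe set was short of 1.5-fold in both, at 1.43-fold among CD30high and 1.20-fold among CD30low cells. Among CD30high cells the second probe sets of Psat1 (1.26-fold) and Slc38a2 (1.48-fold) were also short of it. Those of Vldlr (3.52-fold) and Sesn2 (1.90-fold) were past it. The 2 comparisons share no array, but any difference in culture or source animals between the lineages enters both.

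The order of the 4 arrays was also read for members with a mean signal of at least 200, whether or not they passed a fold limit. The shares of members that the lineage separated were near those of all genes. Both Th17 arrays were above both Th1 arrays for 9 of 35 members (25.7%; Cebpb, Cebpg, Vldlr, Psat1, Shmt2, Mthfd1l, Aars, Lars and Tars), against 30.3% of 8438 genes. Both were below for 11 members (31.4%; Atf4, Phgdh, Pck2, Slc3a2, Slc1a5, Slc38a2, Cars, Gars, Nars, Sars and Yars), against 28.3% of genes. Cars, the cysteine synthetase, had signals of 401 and 416 in CD30high and CD30low Th17 cells and of 765 and 587 in CD30high and CD30low Th1 cells, and its log2 ratio of -0.93 among CD30high cells was the lowest of any member in that comparison. Of these members, 6 of the 9 and 6 of the 11 had a second probe set with a mean signal of at least 200, and 5 and 4 of them kept the order on it. Shmt2, Atf4 and Slc1a5 did not. For Shmt2 the second probe set gave -0.54 among CD30high and -0.52 among CD30low cells, and for Slc1a5 it gave 0.14 and 0.08.

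Members were also split by whether TGATGNAA was found in their start-site windows, as a description only. Over the 9 members with the motif and a mean signal of at least 200, the median CD30 log2 ratio was 0.15 in Th17 and 0.03 in Th1 cells, and over the 20 in whose windows it was not found it was 0.16 and 0.11. The ratios of the 9 spanned -0.42 (Trib3) to 1.28 (Vldlr) in Th17 cells, the pair of ends both holding the motif shown above. For Th17 over Th1 the medians were -0.07 with and 0.03 without the motif among CD30high cells, and -0.19 and -0.08 among CD30low cells.

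**Figure D4:**
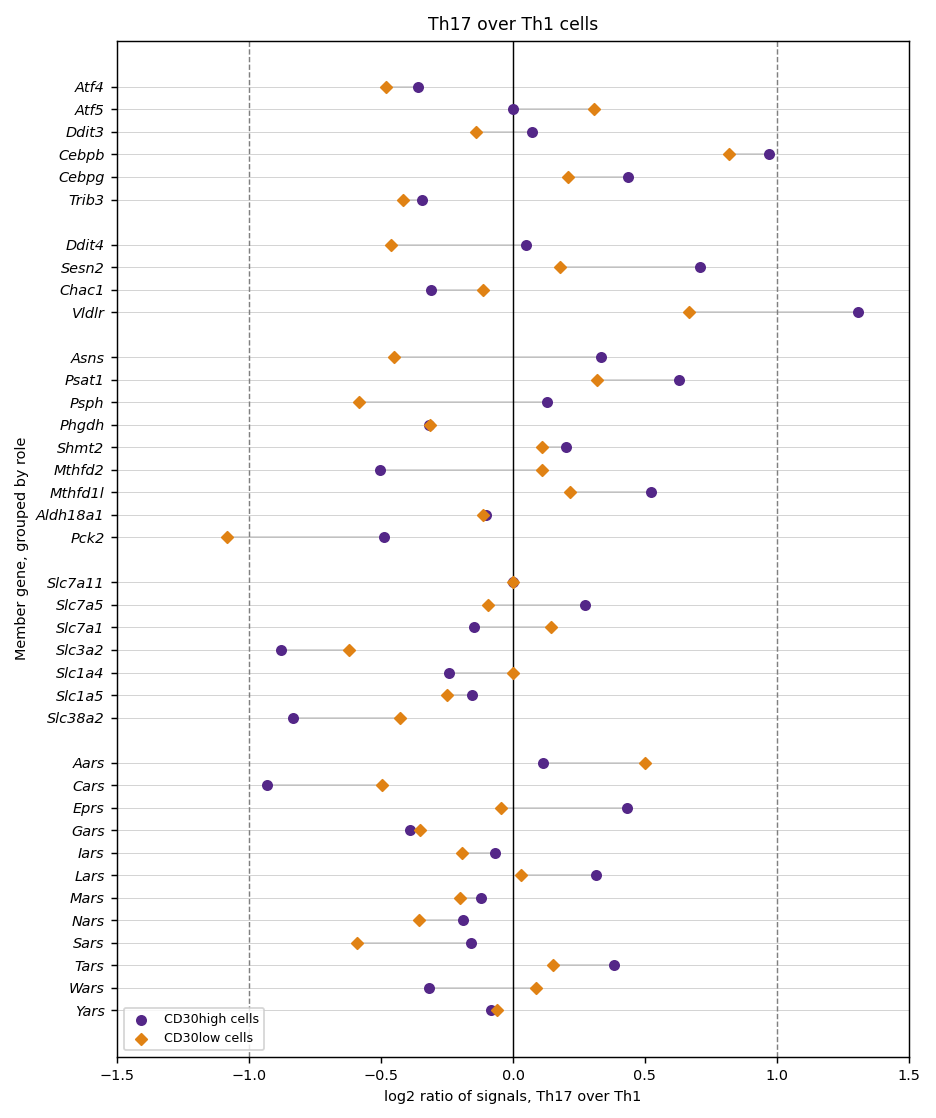
Log2 ratio of Th17 over Th1 for each member (horizontal axis), among CD30high cells (purple circles) and CD30low cells (orange diamonds), with signals below 100 set to 100. Dashed lines mark 2-fold; Vldlr among CD30high cells (1.31) and Pck2 among CD30low cells (-1.08) lie beyond them.

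A limma fit of all 4 arrays with lineage and CD30 gate as additive terms leaves 1 residual degree of freedom and takes any difference in the CD30 effect between lineages as error. For the CD30 effect common to both lineages, limma called 0 of 35 members and 0% of 8438 genes at an adjusted p of 0.05, and at an unadjusted p under 0.05 it held 4 members and 866 genes. No other tool was run. The members with the smallest p for CD30 were Vldlr (log2 0.96 ± 0.21, SE) and Slc7a5 (0.68 ± 0.17, SE), both with a limma adjusted p of 0.439. On its brightest probe set each was higher in CD30high cells in 2 of 2 lineages, but for Vldlr in Th1 cells the sign differed between probe sets. For the lineage effect common to both gates, limma called 401 of 8438 genes (4.75%) and 0 of 35 members, with 9 members and 2449 genes at an unadjusted p under 0.05. The member nearest to the threshold was Cebpb (log2 0.89 ± 0.15, SE, limma adjusted p = 0.0514), followed by Slc3a2 (-0.75 ± 0.16, SE, limma adjusted p = 0.0723) and Vldlr (0.99 ± 0.21, SE, limma adjusted p = 0.0749). For Atf4 the lineage effect was -0.42 ± 0.13 (SE, limma adjusted p = 0.123).

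Other genes linked to ATF4, listed apart from the members, differed more between the Th17 populations. Of 11 with a signal of at least 300 there, 3 were at least 2-fold higher in CD30high than in CD30low Th17 cells and 1 was lower. Of all genes, 3.94% were higher and 3.66% lower. Atf3, an ATF4-induced factor, had signals of 1037 in CD30high and 284 in CD30low Th17 cells, Cth, the cysteine-forming enzyme, 436 and 116, and Eif4ebp1, which encodes the translation inhibitor 4E-BP1, 5778 and 2856. Sesn1, a paralogue of Sesn2 known mainly as a p53 and FOXO target, had 291 and 836. None of 10 of these genes passed the rule in Th1 cells, where 1.28% of all genes did. Between the lineages, Atf3, Cth and Lonp1 were higher and Jdp2 and Sesn1 lower in Th17 cells among CD30high cells, of 12. Among CD30low cells Lonp1 was higher and Sesn1 lower, of 9. Of all genes, 11.8% passed in either direction among CD30high and 9.35% among CD30low cells.

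The remaining tRNA synthetases gave a partly different picture. All 10 other cytosolic synthetases and scaffold proteins of the multisynthetase complex were higher in CD30high than in CD30low Th17 cells, with a median log2 ratio of 0.22 and Farsa, a phenylalanine synthetase subunit, highest at 0.63, and in Th1 cells 4 of 10 were, with a median of -0.04. None of these 10 passed the 2-fold rule in any of the 4 comparisons. Of 16 mitochondrial synthetases, 9 to 11 reached 300 in a comparison and none of these passed, while Vars2 and Wars2 differed by over 2-fold in some comparisons at signals below 300. Of the eIF2α kinases and phosphatases and the eIF2B subunits, 14 genes in all, none passed the rule for CD30 in either lineage. The kinase gene Eif2ak3, which encodes PERK, was at least 2-fold lower in Th17 than in Th1 cells among CD30low cells, with signals of 1220.4 and 2461, and had signals of 1181 in Th17 and 2238 in Th1 cells among CD30high cells (log2 -0.92).

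Further lists held single genes past the 2-fold rule for CD30, which 7.60% of all genes passed in Th17 and 1.28% in Th1 cells. In Th17 cells Ern1, which encodes the stress sensor IRE1α, had 640.3 in CD30high and 281 in CD30low cells, of 10 genes of the IRE1 and ATF6 branches at 300 or more. Hmox1, the haem oxygenase among the NRF2 targets, had 351 and 170.3 in CD30high and CD30low Th17 cells, of 5. Shmt1, the cytosolic counterpart of Shmt2, had 1065 in CD30high and 496 in CD30low Th1 cells, of 6 other serine, folate and proline enzymes, and Slc43a2, a neutral amino acid transporter, had 271 and 675 in CD30high and CD30low Th1 cells, of 7 other transporters. In the lineage comparisons Glul, the glutamine synthetase, was lower in Th17 cells in both gates (log2 -1.16 among CD30high and -1.02 among CD30low cells), and Tyms, the thymidylate synthase, was higher among CD30low cells (log2 1.31). Of 7 housekeeping genes none passed the rule in any comparison, and their median log2 ratio was 0.03 for CD30 in Th17 and -0.03 in Th1 cells, and -0.28 for lineage among CD30high and -0.44 among CD30low cells.

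**Figure D5:**
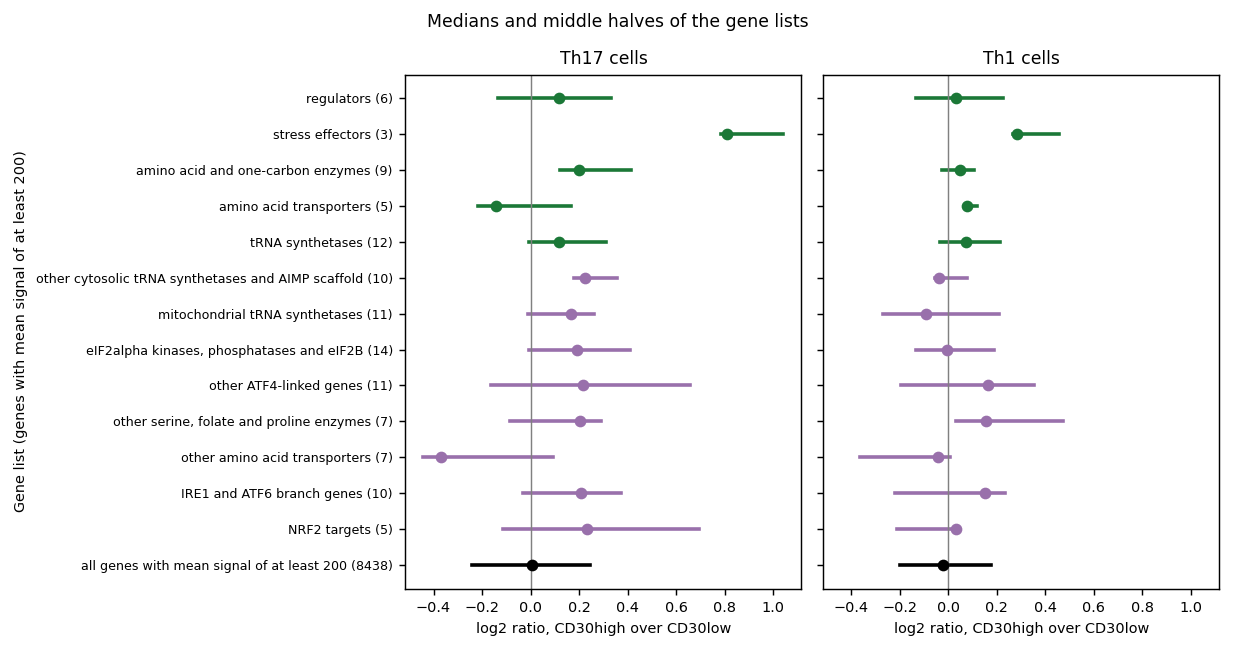
Median log2 ratio of CD30high over CD30low (points) and interquartile range (bars) for each list, in Th17 cells (left) and Th1 cells (right), over genes whose mean signal reached 200, whose number stands in parentheses. Green marks the members by role, purple the other lists and black all 8438 genes. The stress effectors stand highest, at 0.81 in Th17 and 0.28 in Th1 cells, on the brightest probe sets of 3 genes. In Th1 cells the sign for Vldlr and Sesn2 among them depended on the probe set.

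Several features of the arrays moved with the comparisons above, and their part in the members' values was not tested. Mean signals trimmed by 2% at each end were 496.6 to 497.0 on all arrays. Il17a (14443 and 1398 in CD30high and CD30low Th17 cells, 49.4 and 37.7 in CD30high and CD30low Th1 cells) and Tbx21 (243 to 281 in Th17, 2190 to 2352 in Th1 cells) followed the labels. Tnfrsf8, which encodes CD30, was at 132 and 34.9 in CD30high and CD30low Th17 cells and at 51.1 and 13.3 in CD30high and CD30low Th1 cells. The Y-linked Eif2s3y was at 9.39 or below in Th17 and at 1640.0 or above in Th1 cells, while the X-inactivation transcript Xist was high on all arrays, at 22613 and 22350.0 in CD30high and CD30low Th17 cells and at 16223 and 14620.4 in CD30high and CD30low Th1 cells. Lineage and the makeup of the source animals cannot be told apart. The summed signal of 6 stromal markers was 7761 in CD30high and 1050.3 in CD30low Th17 cells and 246 and 227 in CD30high and CD30low Th1 cells, mostly from Lum (6697 and 768 in CD30high and CD30low Th17 cells), with Col1a1, Col1a2, Col3a1 and Pdgfrb below 100 on all arrays. That of 7 myeloid markers was 2259 in CD30high and 7571 in CD30low Th17 cells and 464 and 310 in CD30high and CD30low Th1 cells. In Th17 cells it came mostly from S100a8 (1209.9 in CD30high and 5192 in CD30low) and S100a9 (527 and 2017), while Csf1r (130.1 and 30.3), Adgre1 (158 and 64.8) and Cd14 (104 and 26.9) went the other way. The sum of 4 CD8 T and NK markers was 598 and 857 in CD30high and CD30low Th17 cells and 4954 and 6986 in CD30high and CD30low Th1 cells. In Th1 cells it came mostly from Klrd1 (4360 in CD30high and 6199 in CD30low), and Cd8a and Ncr1 were below 100 on all arrays. The 4 dendritic markers were below 100 on all arrays, and the 4 T helper markers found were above 100 on all. The sum of these T helper markers was 12833 and 17632 in CD30high and CD30low Th17 cells and 20241 and 23913 in CD30high and CD30low Th1 cells. It came mostly from Cd3g (8404 and 13121 in CD30high and CD30low Th17 cells), while Il2rb (2382 and 1807) went the other way.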

How the data were processed

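Biotin-labelled RNA of 4 sorted populations was hybridized to 1 array each, and groups were taken from the sample titles. The deposited table held the authors' intensity values, 1 linear signal per probe set, credited to the GeneChip Operating Software in the methods and to Affymetrix Expression Console in the submitters' processing notes. The version, the summary algorithm and the scaling target are not given in the sources used here, the table used here held no detection calls, and scaling to a common mean would hide a change shared by most genes. Of 45037 probe sets, 34945 had 1 symbol in the platform annotation, 932 had several and 9160 were unnamed here, and symbols were updated through gene identifiers for 34741.

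The log2 ratios were computed here from the deposited signals after signals below 100 were set to 100. The fold rule asked for 2-fold and 300 in the brighter array, limits that follow a legend of the study. The limma fit had terms for lineage and CD30 gate, a variance trend and Benjamini-Hochberg adjustment, over the 8438 genes whose mean signal reached 200. In simulated data of the lineage comparison with 200 changed genes of 8438, the fit found 70% of the 2-fold and 98% of the 4-fold changes with 13 of 181 calls false (7.18%), and 43% and 88% with 21 of 152 false (13.8%) when spreads were drawn from the fitted prior, so its false calls can exceed the 5% aimed at. Members and lists were chosen with earlier results of these data known. All members could be named, and members past the fold rule, Atf4 and the 3 brightest of each role got signals on every array. Asns, Trib3, Mthfd2, Psat1, Slc3a2 and Cars got them after their values had been seen. Of the other lists, genes past the fold rule were named, at most 4 per list and comparison by size of ratio. The sex-linked, lineage and cell type marker lists were an exception, given by examples or sums, and not all of their genes past the rule were named. The mast cell marker Mcpt8, for example, had 470 in CD30high and 85.7 in CD30low Th17 cells. Lists named on the array that are not described in the results are 10 interferon γ-induced genes (Ido1, log2 3.21 for CD30 in Th17 cells, the only CD30 call, with Ido1 and Socs1 higher and Irf1 and Tap1 lower in Th17 cells among CD30high cells, and Socs1 higher among CD30low cells), 4 B cell markers (summed signal 179.6 to 301), 2 erythroid markers (47.8 to 90.3) and 4 mast cell markers (396 to 819). Promoter sequences came from RefSeq (GRCm38.p6). Other scalings, fold limits, signal limits, floors, probe set choices and limma settings were tried. Software was R 4.3.3 with limma 3.58.1, and Python 3.11.15 with matplotlib 3.10.9, pandas 2.3.3 and numpy 2.4.6. Precision is limited throughout by the number of arrays.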

Additional observations from a re-analysis of the deposited data

Results flagged for a closer look

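Asns differed between Th17 and Th1 cells in opposite directions in the gates, with a log2 ratio of Th17 over Th1 of 0.33 among CD30high and -0.45 among CD30low cells, 1 array each. This difference was not tested. For Trib3 the second probe set, which the main values do not use, gave a log2 ratio of Th17 over Th1 of -1.06 among CD30high cells (signals of 173 in Th17 and 359 in Th1 cells), past 2-fold, where the brightest probe set gave -0.35.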

How the results depend on the processing

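No paired analysis was possible because each group had 1 array and no label paired the samples, and for the same reason no array could be left out of the limma fit, which has 1 residual degree of freedom. At a fold limit of 1.5, the members past the rule numbered 6 for CD30 in Th17 cells and 1 in Th1 cells, and 7 for lineage among CD30high and 5 among CD30low cells. At a fold limit of 3 they were 0 for CD30 in Th17 cells and 0 for lineage in either gate. Without probe sets marked as able to bind other transcripts, 0 members passed the rule for CD30 in Th17 cells, since the next Vldlr probe set gave a log2 ratio of 0.99, and 2 passed for lineage among CD30high cells, Vldlr higher and Trib3 lower in Th17 cells. In the limma fit of lineage, quantile normalization called 3 members (Cebpb and Vldlr higher, Slc3a2 lower in Th17 cells) and a filter at a mean signal of 100 called 1 (Cebpb), and the cause was not tested. Over all genes that fit called 759 with quantile normalization and 150 without the variance trend, against 401. The other 67 values of counts and medians kept within their limits. The members' median log2 ratio stayed between 0.13 and 0.16 for CD30 in Th17 cells and between 0.07 and 0.12 in Th1 cells. Of single members' ratios, 589 moved by less than the spread between probe sets, and the other 19 arose with another choice of probe sets, among them CD30 in Th1 cells for Vldlr (-0.19) and Phgdh (0.48).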
